A study of Gallus gallus with 6 samples.

Results

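Chromosome 25 of the chicken carries a large array of feather keratin genes beside the epidermal differentiation complex. Its entries were taken from a table of growing feathers of the neck, wing and leg. All entries whose locus lies on chromosome 25 were kept, named or not, which gave 172 of the 6534 entries of the first table. *F-KER*, a feather keratin gene named in the second table of the same series, made 173 members in all. Feather keratins belong to the corneous beta-proteins of birds and reptiles, which are unrelated to the alpha-keratins that form the filaments of all epithelia. They fill the cells of barbs and barbules as these harden and die. The epidermal differentiation complex is a run of genes for proteins of the cornified cell and is conserved between birds and mammals, with S100 calcium-binding proteins at its edges.

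All samples were growth-phase feathers plucked from untreated, wild type adult chickens (strain given as domesticus), with 2 libraries from each of the 3 regions and 6 in all. The series design describes feather epithelium of the branching zone, freed of pulp and pooled over 5 feathers, whereas the methods of the study name whole follicles or dissected papilla and pulp. The first table holds replicate 1 of every region and the second holds replicate 2. In the second table the headers of the 3 columns join the word chicken to a different number and a region letter. Whether these numbers mark birds is not stated, and if they do, region and bird cannot be told apart there. The first table holds whole numbers of an unstated unit, so its values are called values here, and the second holds FPKM, fragments scaled to gene length and library size. With 1 library per region in each table, differences within a table are given as values with no test, and a count of entries past 2-fold is set beside the same count over all entries.

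The name of the cluster could be checked only in part. Of the 172 entries, 82 carry an Ensembl number alone, 71 a gene name, 8 merge several genes under one value and 11 have no name. None of the 87 Ensembl numbers on the chromosome was found in the RefSeq gene table, so none of those entries could be identified as a keratin, and they are given by number and locus. Of the 76 gene names, 74 were found there. Names such as *S100A14*, *EDbeta*, *RPS27* and *COPA* show that the chromosome also holds calcium-binding, epidermal differentiation and housekeeping genes. In the table's own coordinates the entries ran from 25562 to 2897649, with loci of 189 to 359120 bases. The assembly behind these coordinates was not settled: the labels name galGal4, but the table also places 46 entries on chromosome 33. The 172 entries fall on 125 distinct loci, and 61 of them share a locus with another entry. Feather keratin genes are close copies of one another, and how reads matching several copies were shared is not given in the sources used here. Values of single neighbours are therefore uncertain, and so are values of overlapping loci, since strand is not stated.

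Some chromosome 25 entries were among the highest of the table. The median of the means over the 3 libraries was 98.2 for the 172, against 26.3 for all entries. A value of at least 100 in a library was reached by 93 of the 172, at least 1000 by 46 and at least 10000 by 18. Shares of all entries at these levels are not given here, so the counts alone are no result about the members. Their neck sum was 2016022, their wing sum 254200 and their leg sum 1515160. The neck and leg sums rested mostly on few entries. The highest was an unnamed locus of 189 bases at 2071960 to 2072148, with 1185480 in neck, 14095 in wing and 831345 in leg. The wing library was far below the other libraries, with neck 84.1 times and leg 59.0 times the wing value. The next was ENSGALG00000044754, 298 bases long at 2065932 to 2066229, with 279475 in neck, 2357 in wing and 252386 in leg. Both loci are short, and among the 16 entries of under 400 bases the median mean was 4196, against 47.0 among the 105 entries of 2000 bases and over.

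These few entries also made up most of the chromosome 25 share of the neck and leg libraries, but not of the wing library. The highest alone took 28.3% of the neck total, 0.79% of the wing total and 27.2% of the leg total. With it, the chromosome held 48.0%, 14.3% and 49.7% of the totals. Without it, with the totals reduced likewise, the shares became 27.6% in neck, 13.6% in wing and 30.8% in leg. Without the 2 highest they were 20.2%, 13.5% and 21.9%. Without the 10 highest they were 11.5%, 9.92% and 10.7%, so that the 3 libraries lay within 2 percentage points of each other. The 10 were ranked by the mean over the 3 libraries, and most were far higher in neck and leg than in wing. Leaving them out therefore lowers the neck and leg shares most, and the narrowing is partly set by this choice. Outside chromosome 25 the wing sum was 0.70 of the neck sum, and the leg sum was also 0.70 of it. The share on chromosome 27, another chromosome with beta-keratin genes, was 1.77% in neck, with 3.79% in wing and 1.14% in leg. Its wing sum, 67421, was nonetheless below its neck sum, 74104 (0.91 of it), and its leg sum was 34915. The wing total over all entries was 0.42 of the neck total, so the chromosome 27 share was higher in wing although its sum was lower.

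**Figure D1:**
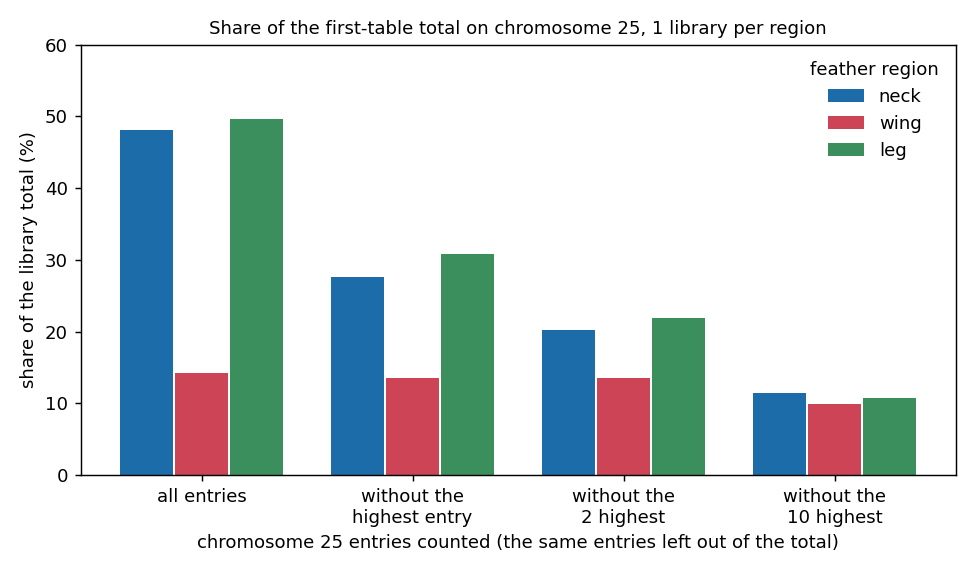
Share of the first-table total (percent, vertical axis from 0) held by chromosome 25 in the neck, wing and leg libraries, for all its entries and after leaving out its 1, 2 or 10 highest; bars are single libraries. The gap between wing and the other regions, 14.3% against 48.0% and 49.7%, narrowed to 9.92% against 11.5% and 10.7% once the 10 highest were left out. Most of these 10 were far higher in neck and leg than in wing, so the narrowing is partly set by the choice.

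The entries did not move one way. In wing against neck, 32 of 172 (18.6%) were at least 2-fold lower on the log2(value + 1) scale, against 7.85% of all entries, and 28 (16.3%) were at least 2-fold higher, against 5.45%. At 4-fold, 23 were lower (13.4% against 2.05%) and 21 higher (12.2% against 1.88%). In leg against neck, 26 were at least 2-fold lower (15.1% against 4.38%) and 21 higher (12.2% against 1.79%). In leg against wing, 34 were lower (19.8% against 10.7%) and 26 higher (15.1% against 4.79%). The median change of the members was -0.12 in wing against neck, -0.31 in leg against neck and -0.42 in leg against wing, beside -0.08, -0.31 and -0.23 over all entries, and each change is to be read against these medians. These splits depend on scaling. With every library rescaled to the same total, 22 were lower and 97 higher in wing against neck, 11 lower and 28 higher in leg against neck, and 104 lower and 19 higher in leg against wing. With the total outside chromosome 25 made equal, wing against neck gave 28 lower and 37 higher, and leg against neck 11 lower and 28 higher. That total rests partly on few high entries. Centred on the median, leg against neck gave 16 lower and 25 higher. The wing total was 0.42 of the neck total, so making totals equal raises every wing value relative to neck. Shares over all entries under these scalings are not given here, so the rescaled counts are no result about the members.

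Changes were arranged in stretches along the chromosome. Entries were ordered by start and end, and those of one locus by name and then by falling neck value, so their order within a locus is not a position. A stretch was defined as at least 3 consecutive entries at least 2-fold different in the same direction in wing against neck. There were 7, of which 5 were lower in wing and 2 higher. The values that define them are a description with no test, and entries of one locus share reads.

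**Figure D2:**
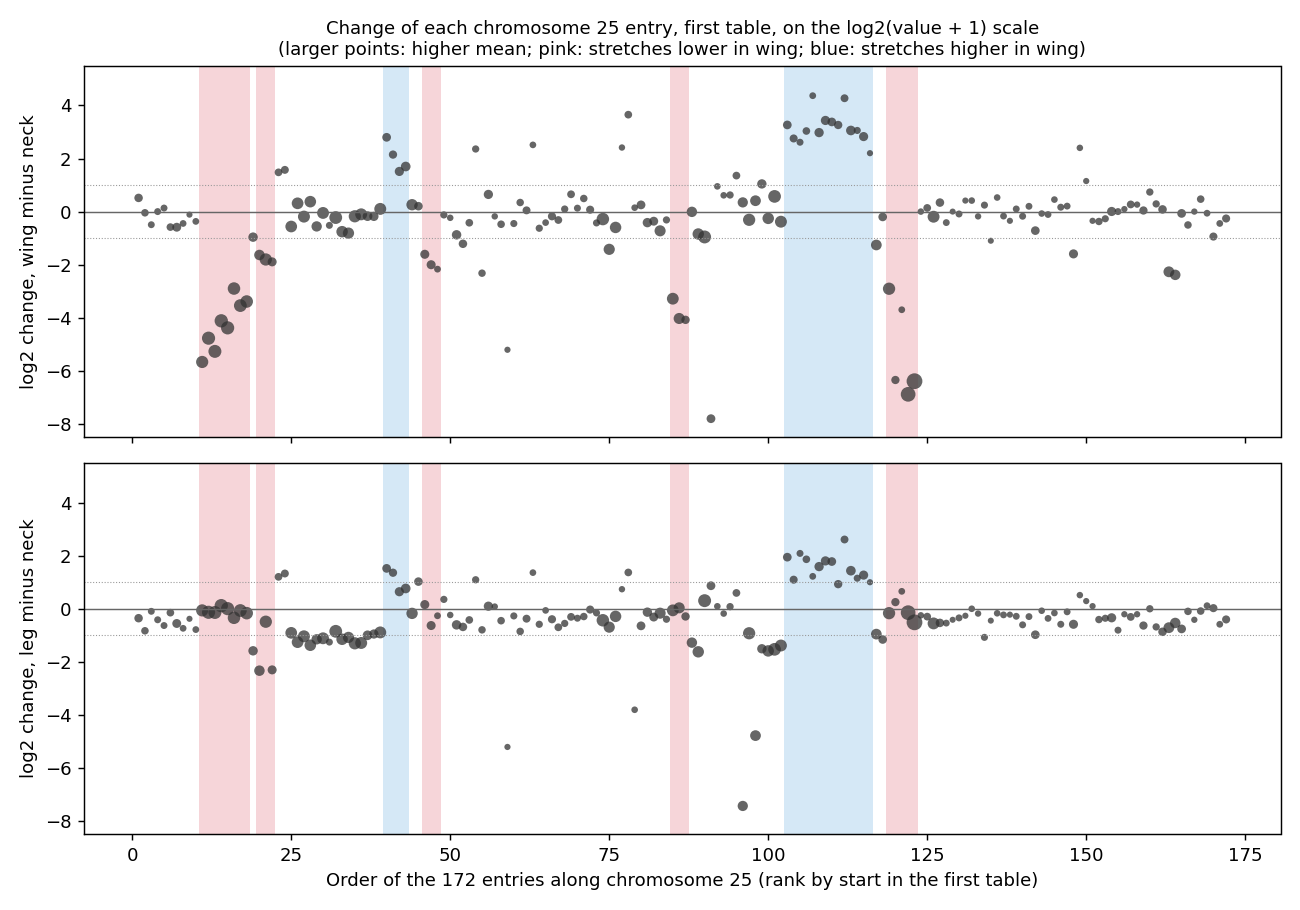
Log2 change of the 172 entries on the log2(value + 1) scale, wing minus neck (upper panel) and leg minus neck (lower panel), by order along chromosome 25; each point is 1 entry, larger with its mean, dotted lines mark 2-fold, and shaded bands are the 7 stretches. Entries 11 to 18 and 119 to 123 lie far below 0 in wing and near 0 in leg, and entries 103 to 116 lie above 0 in both panels.

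The first stretch of high entries held 8 neighbours between 959448 and 987425, all lower in wing. Their values ran from 14194 to 49104 in neck, from 278 to 2843 in wing and from 13602 to 53261 in leg. The 8 were picked for being lower in wing than in neck, so the gap between these regions is partly set by the rule. ENSGALG00000031442, at 973806 to 974554, had 49104 in neck, 2827 in wing and 53261 in leg. ENSGALG00000028706, at 976725 to 977816, had 44000, 2107 and 44139. ENSGALG00000026987 and ENSGALG00000044701, which share the locus 962946 to 971047, had 44577, 1630 and 40649 and 36155, 936 and 32800. ENSGALG00000039987, at 982789 to 983904, had 27364, 2346 and 26145. The lowest in wing was ENSGALG00000027640, at 959448 to 960434, with 14194, 278 and 13602. The log2 changes of the 8 ran from -5.67 to -2.90 in wing against neck, but only from -0.34 to 0.12 in leg against neck. Their sums were 257751 in neck, with 14980 in wing and 246200 in leg.

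The other high stretch, at 2056360 to 2072148, held the 2 highest entries of the chromosome and 3 more, again all lower in wing. ENSGALG00000026754 had 15648 in neck, 2083 in wing and 13947 in leg. ENSGALG00000027167 had 162, 1 and 193, and ENSGALG00000038424 had 25, 1 and 40. The log2 changes were -6.89 to -2.91 in wing and -0.51 to 0.66 in leg, both against neck. A further stretch of this form held 3 entries at 1912396 to 1921941, beside the epidermal differentiation genes. ENSGALG00000000341 had 8911 in neck, 914 in wing and 8549 in leg. ENSGALG00000038478 had 3838, 234 and 3933, and ENSGALG00000044257 had 219, 12 and 179. Here too leg stayed within 2-fold of neck.

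Another stretch, of 3 entries of 352 to 355 bases at 997063 to 1009725 had log2 changes of -1.90 to -1.64 in wing against neck and differed in leg. Of these, ENSGALG00000045923 had 2721 in neck, with 875 in wing and 539 in leg, and ENSGALG00000037114 had 557, 149 and 112, so that leg was the lowest. ENSGALG00000045397 between them had 15699, 4490 and 11192. The last stretch that was lower in wing, with no entry 2-fold different in leg against neck, covered 1 entry at 1078456 to 1078888, with 353 in neck against 115 in wing and 394 in leg, and 2 entries named *COPA*, a subunit of the coat of Golgi transport vesicles. The latter had 436, 108 and 281 and 35, 7 and 29. Both lie in one locus of 130571 bases with 8 further entries, and 2 further *COPA* entries there had 35, 32 and 45 and 19, 16 and 16. This stretch therefore rests partly on how entries of one locus are listed.

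Next to the first stretches, 17 entries at 1011188 to 1044626 were nearly level between neck and wing and lower in leg. They were taken as the entries between stretches set by wing against neck, so the near level of these regions is partly set by the rule. Their sums were 103675 in neck, with 92855 in wing and 49722 in leg. Their median log2 change was -0.18 in wing against neck and -1.08 in leg against neck. In leg against neck 11 of the 17 were at least 2-fold lower, beside 4.38% of all entries. The lowest of these changes was -1.37, beside a median of -0.31 over all entries, so the count past 2-fold depends on scaling. All 17 had less in leg than in wing. The highest, ENSGALG00000041483 at 1030355 to 1031017, had 23545 in neck, 20142 in wing and 13066 in leg. ENSGALG00000037270, at 1036760 to 1037126, had 12882, 11393 and 5223. The exceptions were the first 2, ENSGALG00000030308 with 32, 91 and 75 and ENSGALG00000036113 with 38, 115 and 97, which were lowest in neck.

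The stretch with the most entries ran the other way. All 14 entries at 2003700 to 2028443 were higher in wing than in neck, by up to 4.37 on the log2 scale. All 14 were also higher in leg than in neck, 13 of them at least 2-fold, beside 1.79% of all entries. The stretch was picked by wing against neck, and the neck library enters both comparisons. Values were low, from 2 to 134 in neck, 22 to 1123 in wing and 6 to 364 in leg, with sums of 558, 4990 and 1668. The change of 4.37 was that of an entry with 2 in neck, 61 in wing and 6 in leg. No entry of the first table had a mean below 9.67. Entries with less than this in neck are listed only where another library is higher, so their direction is partly set by this limit. ENSGALG00000029861 had 134 in neck, 1123 in wing and 364 in leg. ENSGALG00000027475 had 66, 724 and 233, and ENSGALG00000029958 of the same locus had 38, 405 and 133. ENSGALG00000026964 had 39, 384 and 153. Of 2 entries named ENSGALG00000032824 in the locus 2014657 to 2019975, one had 30, 297 and 58 and the other 8, 173 and 54. Wing was the highest and neck the lowest of the 3 libraries in each of the 14. A shorter stretch of 4 entries at 1048625 to 1060261 had the same order, with sums of 560, 2016 and 1034. An unnamed entry at 1879830 to 1881788, among the *S100* genes, had 11, 150 and 30.

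**Figure D3:**
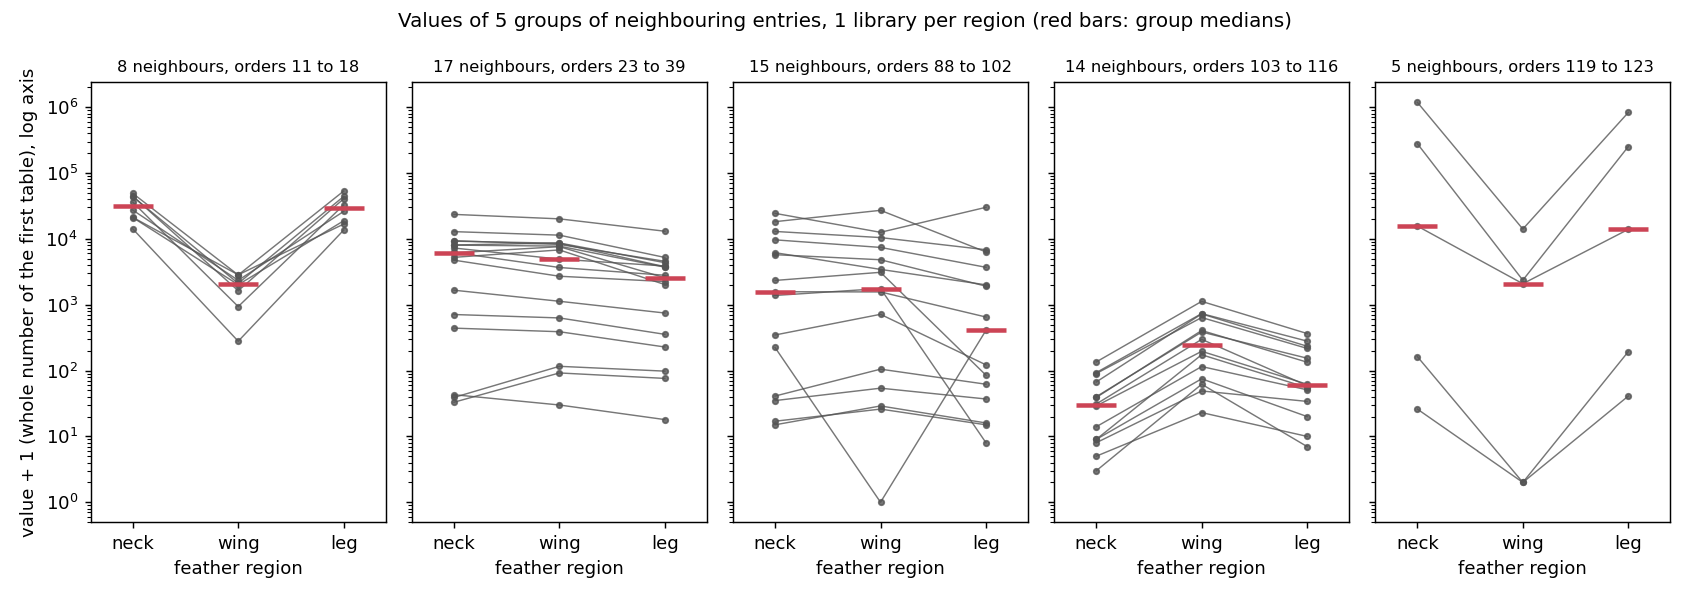
Values + 1 of 5 groups of neighbouring entries in the neck, wing and leg libraries on a log axis; each line joins the 3 libraries of 1 entry and red bars are group medians. Orders 11 to 18 and 119 to 123 dip in wing, orders 23 to 39 are lowest in leg apart from 2 entries, orders 88 to 102 are mixed, and orders 103 to 116 peak in wing at 22 to 1123.

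Most genes with epidermal differentiation names lay between these stretches, at 1925296 to 2002921, and did not share one pattern. The genes *EDMTFH* and *EDMTF4*, named for the residues at the start of their proteins, were much lower in the leg library. *EDMTFH* had 1382 in neck, 1758 in wing and 7 in leg, so that neck was 197 times leg. *EDMTF4* had 2337, 3105 and 84. *EDMTFH* shares its locus with *EDbeta*, which had 12969, 10463 and 6838. *EDCH4* was highest in neck, with 6172, 3437 and 2003. The main *EDQM3* entry went the other way, with 24406 in neck, with 12577 in wing and 30161 in leg, and a second entry of that name at the same locus had 223, 0 and 408, so that it was listed at 0 in wing. ENSGALG00000043714, of 265 bases, had 18251, 27137 and 6323, and an unnamed entry at 1982142 to 1984157 had 346, 714 and 121. Of the 15 entries in this interval, 8 were at least 2-fold lower in leg than in neck and none higher, beside 4.38% and 1.79% of all entries.

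Of the genes listed by full name for the epidermal differentiation complex and its flanks, 5 of 15 had a value in the first table, all of them S100 genes. Genes listed by the start of their name, such as *EDPE*, *EDCH4* and *EDQM3*, were not counted here. Of the 5, 1 was at least 2-fold lower in wing than in neck and none higher, beside 7.85% and 5.45% of all entries. This was *S100A16*, with 4608 in neck, 1718 in wing and 2850 in leg. *S100A14*, the highest of the 5, had 15983, 13147 and 11832. *S100A6* had 4974, 3287 and 4079, *S100A10* had 120, 62 and 122, and *S100A11* had 287, 450 and 307. *S100A8*, which encodes an inflammation-linked calcium-binding protein in mammals, had 27, 30 and 1. *EDPE*, another gene of the complex, had 599, 326 and 393 in one entry and 224, 96 and 139 in another, and *EDKM-b* had 458, 343 and 419.

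Outside these runs many entries were low and nearly level. *RPS27*, a protein of the small ribosomal subunit, had 7945 in neck, 6946 in wing and 5418 in leg. *NCSTN* and *APH1A*, subunits of the gamma-secretase that cleaves Notch receptors, had 16, 14 and 17 and 26, 24 and 20. *CRABP2*, a retinoic acid-binding protein, had 6, 39 and 17. *CFAP45*, a protein of cilia and flagella, had 446, 147 and 297. ENSGALG00000044765 and ENSGALG00000042695, neighbours at 2740312 to 2756432, had 3278, 679 and 2000 and 2167, 414 and 1495, with wing the lowest in both. An unnamed entry at 1326276 to 1334664 had 36 in neck and was listed at 0 in wing and leg.

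*F-KER* in the second table was also lowest in wing, in libraries other than those of the first table. Its FPKM was 30066 in neck, with 2261 in wing and 31971 in leg. Neck was 13.3 times and leg 14.1 times the wing value, while leg was 1.06 times neck. On the log2(FPKM + 1) scale the change was -3.73 in wing against neck, 0.09 in leg against neck and 3.82 in leg against wing. *F-KER* ranked 2 of 6534 genes in neck, but 63 in wing and 2 in leg, and took 3.79%, 0.32% and 3.97% of the FPKM totals. Whether it is one of the numbered entries of the first table could not be settled by name. In RefSeq its span overlaps that of LOC431325, which has F-ker as an older name and an FPKM of 14118, 2872 and 13174.

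The second table has no loci, so order was taken from the RefSeq annotation of GRCg7b. This placed 81 of its genes on chromosome 25, of which 64 reached an FPKM of 1 in a library and 8 were listed at 0 throughout. They took 37.4% of the FPKM total in neck, 12.6% in wing and 39.4% in leg. *F-KER* lay within 13 consecutive genes that were all lower in wing, with log2 changes of -5.29 to -2.30, and within -0.11 to 0.55 between leg and neck. Their FPKM ran from 12060 to 31529 in neck, from 307 to 3388 in wing and from 11435 to 40035 in leg. The run was picked for being at least 2-fold lower in wing than in neck, so the gap between these regions is partly set by the rule. LOC429492, the highest, had 31529, 2651 and 40035, and LOC100859148, the lowest in wing, had 12060, 307 and 14334. The other 12 of the 13 carry placeholder names, and only LOC431325 among them has an older name that marks it as a feather keratin.

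**Figure D4:**
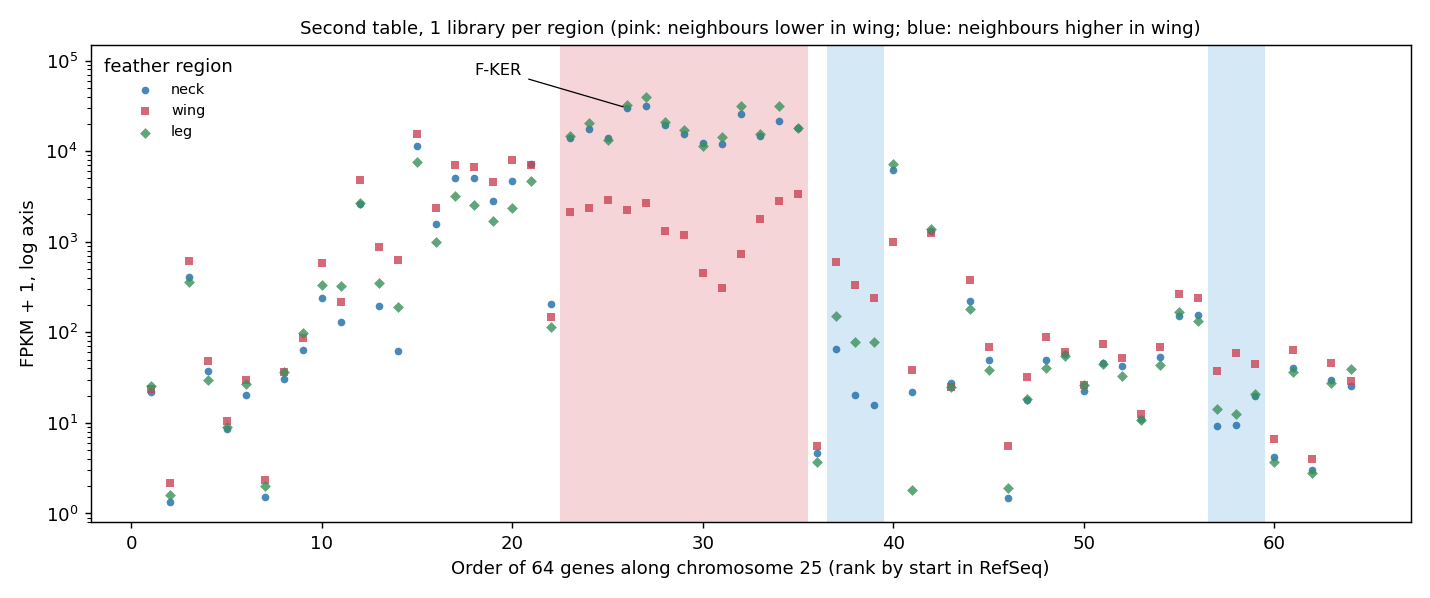
FPKM + 1 on a log axis for 64 chromosome 25 genes of the second table, by order along the chromosome in RefSeq; circles are neck, squares wing and diamonds leg, 1 library each, and shading marks runs of at least 3 genes 2-fold lower (pink) or higher (blue) in wing. Within the pink run, which holds F-KER, the wing points lie between 307 and 3388 and the neck and leg points from 11435 upward.

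By the rule that ends a run, the genes next to it were not 2-fold lower in wing than in neck. Before it, 8 LOC genes whose FPKM averaged 1000 or more were within 2-fold between neck and wing and had sums of 40335 in neck, with 56033 in wing and 25683 in leg. In leg against neck 0 of the 8 were at least 2-fold lower, beside 0.875% of the 4913 genes that reached an FPKM of 1. Their median log2 change there was -0.66. LOC100859722, the highest of them, had 11423, 15607 and 7568. LOC396480, with the older name sKer, had 61.6, 627 and 191. After the run, LOC395095, LOC100858504 and LOC771066 were all highest in wing and lowest in neck, with sums of 99.2, 1162 and 307. *KRTAP10-4*, listed in RefSeq as JAC1, had 6168, 980 and 7138. *S100A9*, listed in RefSeq as S100A12, had 20.8, 37.6 and 0.82. Among the 64 genes, 14 were at least 2-fold lower in wing than in neck (21.9%, against 1.79% of the 4913 genes at that level) and 10 higher (15.6% against 15.8%). In leg against neck 1 was lower (1.56% against 0.875%) and 5 higher (7.81% against 2.95%). In leg against wing 18 were lower (28.1% against 15.0%) and 14 higher (21.9% against 2.22%). The share higher in wing was thus near the background. In RefSeq order 13 of the 14 genes lower in wing were consecutive among the 64, and *KRTAP10-4* lay apart. The first table's stretches lower in wing lay in 5 places. Its listed entries and coordinates differ, and its Ensembl numbers could not be matched, so these layouts cannot be compared directly.

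A test over replicates was possible for 20 named members listed once in both tables, none of them a keratin. Regions were compared with limma on log2(value + 1) over all 2191 genes shared by the tables, with the table as a block and Benjamini-Hochberg adjustment. Spread was pooled over genes, so the p-value of a gene does not measure that gene's own spread between libraries. In wing against neck 7 of 20 were higher and 0 lower, against 19.5% and 8.26% of all genes tested (8 higher and 1 lower at an unadjusted p under 0.05). In leg against neck 1 was lower and 0 higher, against 10.4% and 1.78% (4 lower and 2 higher at an unadjusted p under 0.05). In leg against wing 12 were lower and 1 higher, against 40.8% and 5.98%. Centring each library on its median gave 3 lower and 7 higher in wing against neck, 0 lower and 4 higher in leg against neck, and 8 lower and 6 higher in leg against wing. Quantile normalization gave 1 lower and 6 higher, 0 lower and 1 higher, and 5 lower and 4 higher. Without the block none of the 20 was called. Shares over all genes tested under these other settings are not given here, so their counts are no result about the members.

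The largest change was in *CTSK*, cathepsin K, a collagen-degrading protease. In the first table it had 6 in neck against 36 in wing and 9 in leg, and its FPKM was 8.38, 57.4 and 11.7. Wing exceeded neck by 2.52 ± 0.19 (log2, SE, n = 2 per region, limma adjusted p = 3.75e-37) and leg was lower than wing by a log2 change of -2.05 (limma adjusted p = 1.16e-24). *CTSS*, cathepsin S, a protease of antigen-presenting cells, lay 1.59 ± 0.20 higher in wing than in neck (limma adjusted p = 2.27e-14), with 8, 19 and 10 and an FPKM of 8.23, 36.5 and 13.4. *S100A11* was 0.97 ± 0.22 higher (limma adjusted p = 0.000129), and *ARNT*, a partner of bHLH-PAS transcription factors, 0.81 ± 0.18 higher (limma adjusted p = 6.21e-05). *ANP32E*, a histone chaperone, *TPM3*, a tropomyosin, and *PSMD4*, a ubiquitin receptor of the proteasome, were higher by 0.56, 0.55 and 0.47. These 3 and *S100A11* were not called in a fit of the neck and wing libraries alone. Under quantile normalization limma no longer called *CTSS* in wing against neck (adjusted p = 0.058) or *CTSK* in leg against wing (adjusted p = 0.099), and *CTSK* in wing against neck had an adjusted p of 0.028. No entry of the first table had a mean below 9.67. There *CTSK* in neck and leg and *CTSS* in neck lay below this, so both genes were listed only through higher libraries. Their direction in that table, which enters the p-values, is therefore partly set by this limit.

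In leg, *UBQLN4*, a ubiquilin that carries ubiquitinated proteins to the proteasome, fell by 0.54 against neck (SE 0.17, limma adjusted p = 0.0216). That call was lost once each library was centred on its median, and under quantile normalization. *S100A10*, the partner of annexin A2, was 0.69 ± 0.17 higher in leg than in wing (limma adjusted p = 0.00036), with 120, 62 and 122 in the first table and an FPKM of 24.6, 28.3 and 38.1. *TPM3* fell by 0.96 and *ANP32E* by 0.83 in leg against wing.

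**Figure D5:**
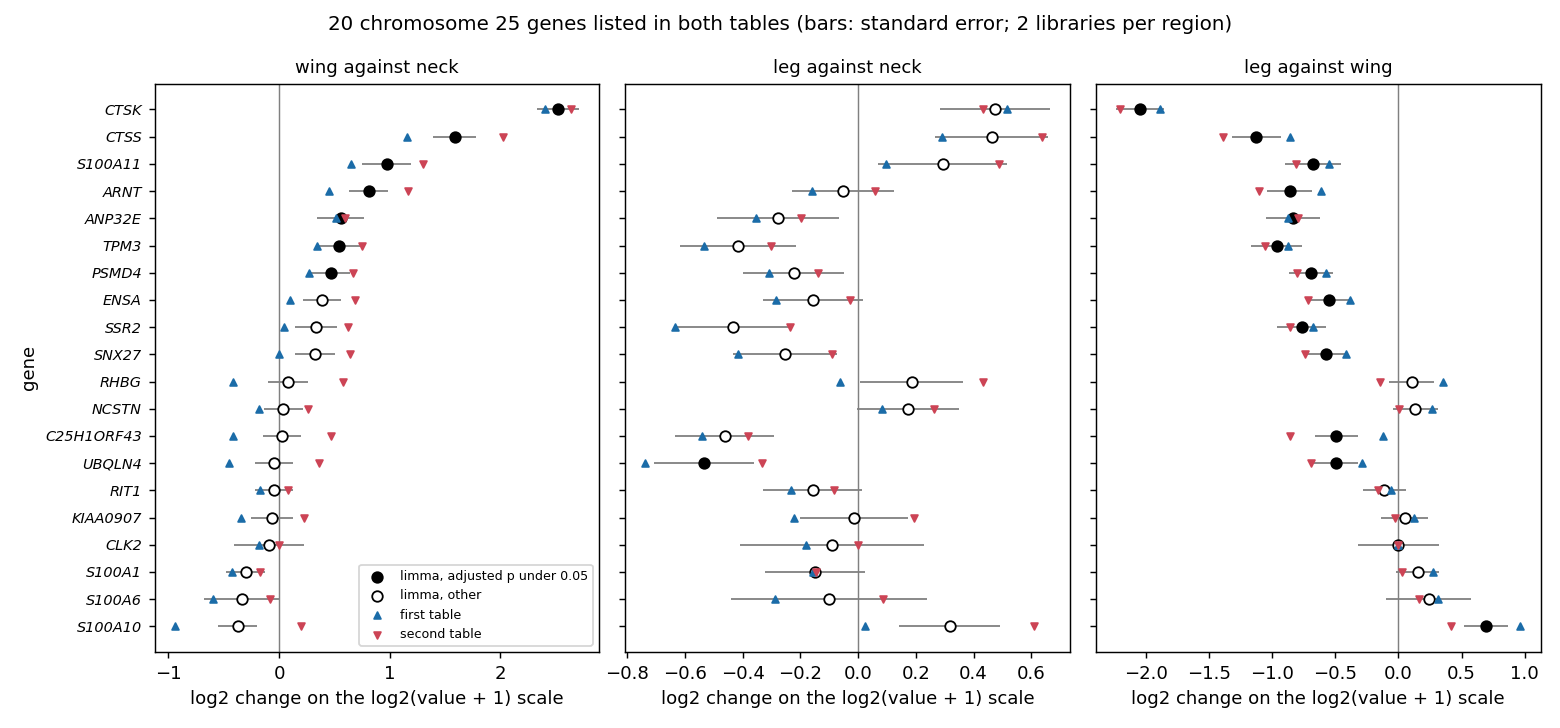
Log2 change of the 20 chromosome 25 genes listed in both tables for the 3 pairs of regions; circles are limma estimates with standard errors (filled: adjusted p under 0.05), upward triangles the first table and downward triangles the second. CTSK lies at 2.52 in wing against neck, with both tables to the right of 2.

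Markers of other cell types also differed between regions. Of 16 pulp mesenchyme genes 7 were in the first table, summing to 202 in neck, with 635 in wing and 384 in leg. Of the 7, 6 were at least 2-fold higher in wing than in neck, beside 5.45% of all entries. Of the 16, 14 were in the second table and summed to an FPKM of 416, 1802 and 960. Of the 14, 13 were at least 2-fold higher in wing than in neck, beside 15.8% of the 4913 genes that reached an FPKM of 1. Blood markers of the second table (4 of 5 genes) summed to 90.4 in wing and 32.5 in leg, with less in neck, while the only one in the first table, *ALAS2*, had 16, 15 and 12. Leukocyte markers summed to 37.8, 120 and 109 (5 of 6 genes), about as high in leg as in wing, and *CD74* had 19, 47 and 59 in the first table. Endothelial markers (2 of 6 genes) summed there to 3.17, 15.4 and 11.1, and melanocyte markers to 112, 266 and 95.2 (5 of 6 genes). The latter went both ways, with *TYR* at 48.7, 209 and 36.0 and *TYRP1* at 13.7, 0.20 and 20.2. The 4 melanocyte markers of the first table summed to 221, 739 and 154. Feather epithelium markers summed to 691, 884 and 633 in the first table (4 of 10 genes) and 2513, 3963 and 2386 in the second (8 of 10 genes, of which *KRT5* and *KRT75* were listed at 0). The first table also had 307, 519 and 244 for *KRT5*. Markers of cornification outside chromosome 25 summed to 4375, 5220 and 3628 in the first table, over 15 of 35 genes. Most of this was *CSTA*, with 3308, 4327 and 2626, so the sum says little about the others. The median log2 change of the 15 was -0.04 in wing against neck and -0.29 in leg against neck. Of the 15, 0 were at least 2-fold lower and 1 higher in wing than in neck, beside 7.85% and 5.45% of all entries. The second table held 9 of the 35 genes, which summed to an FPKM of 3747, 3527 and 3465, mostly from *TXN* (3486, 3162 and 3114). Of the 9, 0 were at least 2-fold lower and 2 higher in wing than in neck, beside 1.79% and 15.8% of the 4913 genes. The part of pulp or blood cells in the wing differences was not tested. In bulk RNA, fewer cells of a type and less RNA per cell cannot be told apart.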

How the data were processed

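RNA-seq of neck, wing and leg feathers (2 libraries per region, 6 in all) was taken from 2 tables. Samples were grouped by their titles. In the first table (replicate 1) the authors deposited a whole-number score, a gene name and a locus per entry. Their unit is not stated, and relative to FPKM they did not grow with gene length (Spearman rho -0.37 over 2138 genes), so they were not treated as counts. Values of the second table (replicate 2) were deposited as FPKM, and its column of authors' means and its 101 rows without values were not used. The submitters' processing notes name TopHat2 2.1.0, Cufflinks 2.2.1 and galGal4. Depth is not known for any library, so no interval or detection floor is given. First-table totals were 4195932 (neck), 1780292 (wing) and 3051339 (leg), and no entry had a mean below 9.67. An entry with less than this in a library is therefore listed only through a higher value in another. Names changed to numbers or dates (8 and 11) were left out of matches.

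Members and lists were chosen with earlier results of these data known. Levels are as deposited. Changes are differences of log2(value + 1), which understate low genes. limma 3.58.1 (lmFit, eBayes with trend) was run in R 4.3.3 on 2191 genes with a mean of at least 1, a replicate block and an adjusted p-value threshold of 0.05. The test had been planned for one unit and was kept with a block for the table, which takes out each gene's offset between the tables. It does not take out region differences that vary by table, and the main fit used no normalization. The median change in wing against neck was -0.08 over all entries of the first table and 0.29 over all genes of the second. The prior degrees of freedom were infinite, so that spread was pooled over genes. Deviations of same-numbered libraries correlated at 0.97 to 0.99, since the number is also the table. Whether the numbers in the headers of the second table mark birds is not stated, and no bird is named for the first. The p-values rest on how far the region differences of the 2 tables disagree, pooled over genes. They do not measure the spread of a single gene between replicate libraries. Named entries were the 10 highest, the 5 largest rises and falls per pair among entries of at least 100 in a library, names in both tables, list members and *F-KER*, and others were chosen after their values were seen. Stretches needed 3 neighbours. Alternatives were other pseudocounts, scalings, folds, filters and sample sets. The limma script was tested on simulated data. RefSeq (GRCg7b) gave names and gene order only. Other steps ran in Python 3.11.15 (numpy 2.4.6, pandas 2.3.3, matplotlib 3.10.9, scipy 1.17.1).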

Additional observations from a re-analysis of the deposited data

How the results depend on the processing

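The share of the total on chromosome 25 fell from 48.0% to 11.5% in neck and from 49.7% to 10.7% in leg without its 10 highest entries, and to 27.6% and 30.8% without the highest, an alternative added after seeing the data. The wing share moved by less than 1.5 times, and without merged entries no share moved by more. Without the highest entry the wing sum was 0.29 of the neck sum instead of 0.13, and the leg sum 2.85 times the wing sum instead of 5.96. With every library rescaled to the same total, 119 entries in wing against neck and 123 in leg against wing passed 2-fold, in place of 60 in each. The matching shares over all entries are not given, so these counts are no result about the members. At 4-fold 8 passed in leg against neck (47 at 2-fold), 6 lower (3.49%, against 1.62% of all entries) and 2 higher (1.16% against 0.49%). In leg against wing 25 passed, 8 lower (4.65% against 2.85%) and 17 higher (9.88% against 1.55%). The totals of lower and higher entries stayed within 1.5 times under the other settings, but their split did not always. Without entries of under 400 bases, added after seeing the data, 15 were lower and 20 higher in leg against neck (26 and 21 with them), a pseudocount of 10 left 13 higher there, and among entries of at least 100 in a library 18 were higher in wing against neck (28 among all). The shares of all entries under these settings are not given either, so these counts are no result about the members. The limma counts of 7, 1 and 13 became 0, 0 and 0 with no replicate block. Only the libraries of the regions compared gave 3 in wing against neck, and centring gave 4 in leg against neck. The shares of all genes called under these settings are not given here. With either replicate left out no limma test could be run, since 1 library per region remained. The change in the other table kept its sign for all 21 calls. These calls were chosen by a fit to both tables, so this agreement is largely set by the choice and is no check. Some members that were not called, such as *UBQLN4* in wing against neck, changed sign between the tables. The changes of *F-KER* moved by less than 1.5 times under both alternatives. Depth is not known, each region has 1 library per table, and close gene copies share reads. The causes of these changes were not tested.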

Other observations

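Elsewhere in the first table, 3 entries with no assigned chromosome had the length and order of the second highest chromosome 25 entry. Each was 298 bases long. ENSGALG00000046480 had 280306 in neck, 1787 in wing and 229492 in leg, ENSGALG00000038701 had 88664, 3818 and 51110, and ENSGALG00000046386 had 57736, 366 and 34689. On the log2(value + 1) scale the changes in wing against neck were -7.29, -4.54 and -7.30, and in leg against neck -0.29, -0.79 and -0.74. They were not counted among the members.

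On chromosome 27, 42 of 139 entries (30.2%) were at least 2-fold lower in leg than in neck and none higher, beside 4.38% and 1.79% of all entries. In wing against neck 7 were lower (5.04%) and 9 higher (6.47%), near the 7.85% and 5.45% of all entries. On chromosome 33, of 46 entries, 0 passed 2-fold in leg against neck, and 3 were lower and 1 higher in wing against neck.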
